A study of Mus musculus with 22 samples.

Results

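Notch receptors, their ligands and a pair of nuclear cofactors were followed across the cell types of mouse embryo sections. The members were fixed by name as the Notch genes with probes on the panel, namely the receptors *Notch1*, *Notch2* and *Notch3*, the ligands *Dll1*, *Dll4*, *Jag1* and *Jag2*, and the cofactors *Rbpj* and *Maml2*, which makes 9 of 998 genes. Transcripts had been counted cell by cell with the CosMx spatial molecular imager, which detects hybridised probes in tissue, on 22 sections of 10 µm from E10 embryos. Of these, 13 sections (1 to 13) came from 1 embryo labelled Knockout, *Nr4a1*-/-*Nr4a2*-/- in the study, and 9 sections (14 to 22) from 1 embryo labelled Wildtype, *Nr4a1*+/+*Nr4a2*+/+. *Nr4a1* and *Nr4a2* encode nuclear receptors, and the study asked what they do while blood stem cells arise in the aorta-gonad-mesonephros region, where the sections were cut. The study's own account of the sections used gives other numbers per genotype than the labels, which were followed here. Both mutant strains had been backcrossed to C57BL/6J, and the *Nr4a1* strain carried the tm1Jmi allele. Controls and mutants shared no treatment or transgene named in the labels.

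Notch receptors are single-pass membrane proteins that are cut when a ligand on a neighbouring cell binds them. The freed intracellular part enters the nucleus, joins the DNA-binding protein RBPJ and a Mastermind-like protein such as MAML2, and switches on targets of the Hes and Hey families. In the forming aorta, NOTCH1 and DLL4 act in endothelial cells and take part in arterial identity and in the making of blood stem cells, whereas NOTCH3 is best known from the mural cells around vessels and DLL1 from somites and the nervous system.

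*Notch1* and *Dll4* carried the main result below, so the 250 bases before their transcription starts are shown, as RefSeq gives them for GRCm38.p6. The *Notch1* window lies at chr2:26503823-26504072 on the minus strand and the *Dll4* window at chr2:119325534-119325783 on the plus strand, both written 5′ to 3′ in the direction of the gene. Capitals mark matches to 3 motifs searched on both strands, the RBPJ core TGGGAA, the ETS core GGAAG and the E-box CACGTG.
Notch1: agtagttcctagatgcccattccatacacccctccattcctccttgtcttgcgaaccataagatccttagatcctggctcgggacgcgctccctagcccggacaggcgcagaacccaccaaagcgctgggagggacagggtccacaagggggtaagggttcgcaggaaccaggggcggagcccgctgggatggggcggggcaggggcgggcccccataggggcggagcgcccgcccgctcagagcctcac
Dll4: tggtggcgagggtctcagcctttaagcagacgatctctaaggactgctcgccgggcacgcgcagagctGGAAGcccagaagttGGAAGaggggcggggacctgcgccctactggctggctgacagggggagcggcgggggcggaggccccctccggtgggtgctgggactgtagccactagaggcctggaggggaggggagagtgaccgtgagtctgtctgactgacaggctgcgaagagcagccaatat
The *Dll4* window held GGAAG at 2 places, 182 to 178 and 167 to 163 bases before the start, and neither of the other motifs. The *Notch1* window held none of the 3. Among 32851 mouse promoter windows of the same length, 64.1% held GGAAG, 21.6% held TGGGAA and 6.02% held CACGTG. All 9 genes had a window, and TGGGAA or its reverse complement occurred in those of *Rbpj* and *Maml2*.

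Each cell was placed by transcripts that are not members of the Notch family. Cells with at least 3 transcripts of *Cdh5*, which encodes VE-cadherin, formed the endothelial gate, and at least 4 of *Tagln* and *Acta2* together, both smooth muscle genes, formed the second. At least 4 transcripts of *Twist1*, a mesenchymal transcription factor, formed the third gate, and at least 10% hemoglobin transcripts the fourth. Cells of no gate are called other cells, and the 305 Wildtype and 532 Knockout-labelled cells that passed several gates were left out. This left 559 *Cdh5*-gated, 413 *Tagln*+*Acta2*-gated, 1169 *Twist1*-gated, 685 hemoglobin-gated and 13248 other cells in the Wildtype sections, and 642, 582, 2726, 1049 and 15660 in the Knockout-labelled sections. Section 13 held only 6 *Cdh5*-gated cells, so that gate had 12 Knockout-labelled sections.

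The gates were checked against marker lists without the gate genes. All 10 endothelial markers, among them *Pecam1*, *Kdr*, *Tek* and *Tie1*, were higher in the *Cdh5* gate than in other cells of both embryos. Their median fold over other cells was 2.21 in the Wildtype and 2.31 in the Knockout-labelled sections. Their summed rate was 151.8 to 234.2 counts per 10000 transcripts in Wildtype *Cdh5*-gated cells against 78.5 to 103.5 in other cells, and 167.5 to 205.6 against 63.5 to 91.6 in the Knockout-labelled sections. Of the other lists' genes 1 reached 1.5-fold in this gate, the platelet and megakaryocyte gene *Pf4*, at 1.99 in Knockout-labelled and 0.89 in Wildtype sections, and its part in the values was not tested. The smooth muscle and mural list had a median fold of 1.27 and 1.55 in the *Tagln*+*Acta2* gate, with *Tpm2* highest at 5.32 and 5.90. Genes of other lists were high in that gate too, since 4 of 11 mesenchymal genes reached 1.5-fold in each embryo, with *Col1a1* at 4.51 and 2.88, and 2 of 4 cardiac genes, with *Ttn* at 2.70 and 2.74, and their part in the values of this gate was not tested. The 4 erythroid genes had a median fold of 1.68 and 2.53 in the hemoglobin gate, which rested on *Epor* (3.70 and 5.03) and *Gpx1* (2.13 and 4.14), while *Slc2a1* (1.24 and 0.93) and *Slc40a1* (1.13 and 0.85) stayed near or below 1. The 11 mesenchymal genes reached a median fold of only 1.08 in the *Twist1* gate of either embryo, with 0 of 11 at 1.5-fold or more, so these cells are called by their gate gene alone.

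Some limits apply to every value. Section totals ran from 169027 to 887896 transcripts (median 366514) in the Knockout-labelled and from 211614 to 820265 (median 406889) in the Wildtype sections. With 1 embryo per genotype, sections are repeated measurements of an embryo, so every p-value below is too small as a statement on genotypes. Gated cells also held more transcripts than other cells, with medians of 422 against 161.5 in the Wildtype *Cdh5* gate and 408.5 against 133 in the Knockout-labelled one, so rates are given per 10000 transcripts of the population. A lower summed rate can reflect fewer positive cells or less RNA in each, which the summed rate alone does not tell apart. *Nr4a1* and *Nr4a2* themselves did not set the embryos apart (log2 difference of -0.05 ± 0.07 SE, adjusted p = 0.716, and 0.03 ± 0.09, adjusted p = 0.860, edgeR's quasi-likelihood test, Benjamini-Hochberg adjusted over 998 genes), so the genotype is written as the label gives it. *Nr4a1*, at a mean of 2.77 and 2.24 counts per 10000 transcripts in Wildtype and Knockout-labelled sections, lay at the level of the dimmest genes of the panel, while *Nr4a2*, at 4.89 and 4.17, lay at 1.76 and 1.81 times that level. The labels do not say which part of each transcript the probes bind.

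Over all cells, the 9 genes gave 71234 of 9861825 transcripts. The rates were 6.41 counts per 10000 transcripts for *Notch1*, 9.89 for *Notch2*, 6.92 for *Notch3*, 7.28 for *Dll1*, 4.64 for *Dll4*, 8.91 for *Jag1*, 3.43 for *Jag2*, 19.6 for *Rbpj* and 5.14 for *Maml2*, where the median panel gene had 5.76 and the 49 dimmest genes averaged 2.505. *Jag2* sat closest to that floor among the 9. Probe sets differ in brightness, and levels of different genes are not compared.

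**Figure D1:**
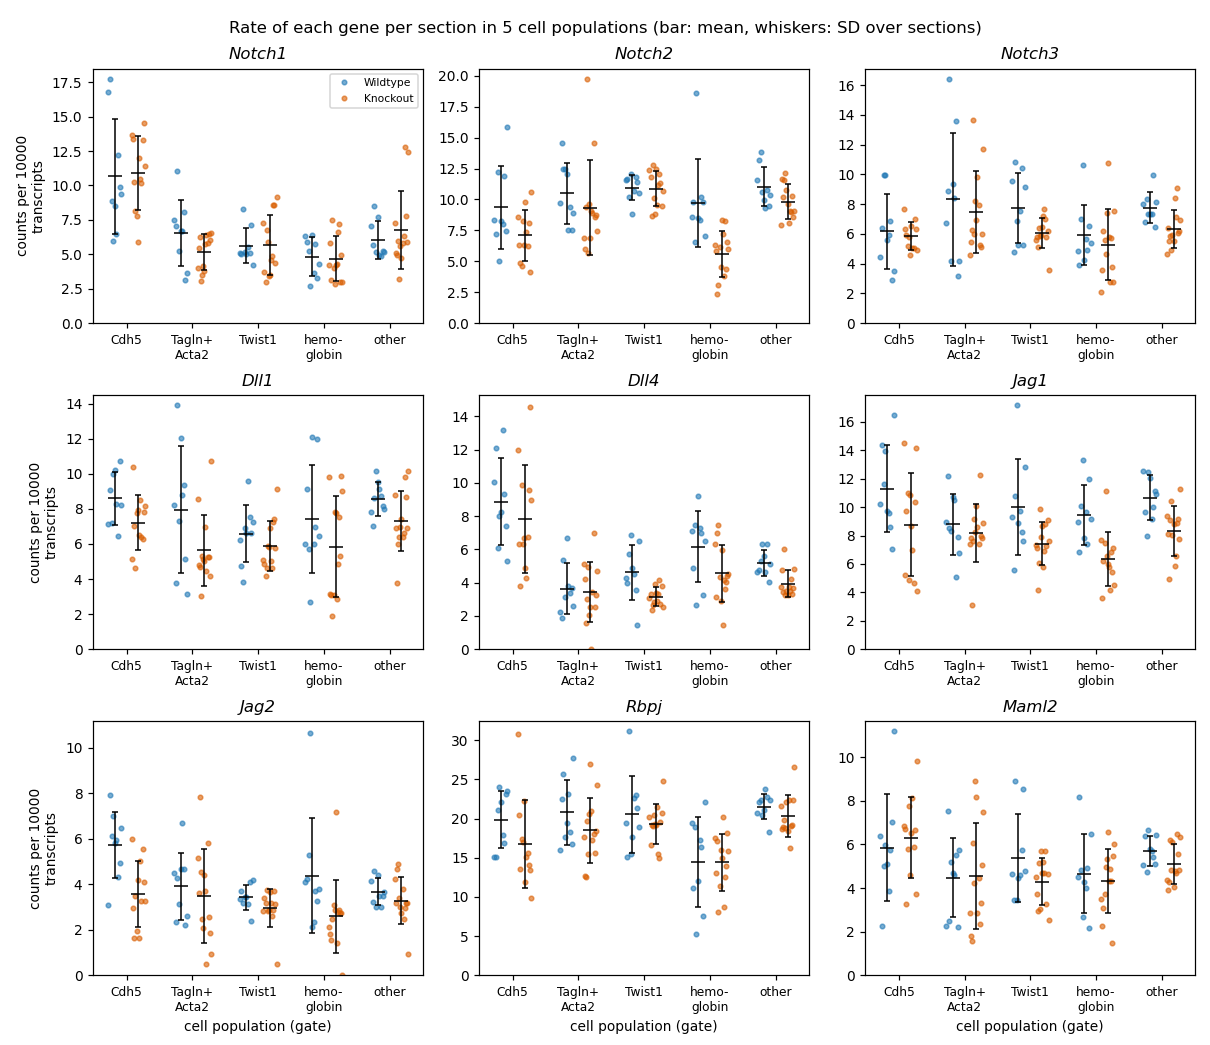
Rate of each of the 9 genes in counts per 10000 transcripts (vertical axes), in the 4 gates and in other cells, with 1 point per section (Wildtype blue, Knockout-labelled orange), the mean as a bar and the SD over sections as whiskers. Notch1 and Dll4 stand highest in Cdh5-gated cells of both embryos, at means of 10.7 and 8.86 in the Wildtype and 10.9 and 7.83 in the Knockout-labelled sections.

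Among the receptors, *Notch1* was the one that was higher in endothelial cells. In Wildtype sections its rate in *Cdh5*-gated cells was lowest at 5.99, median 9.41 and highest 17.7, against 4.85, 5.25 and 8.48 in other cells. In Knockout-labelled sections the *Cdh5*-gated cells had 5.86, 10.9 and 14.6, against 3.19, 5.92 and 12.8 in other cells. The ranges overlapped between sections, but within a section the *Cdh5*-gated cells were above the other cells in 9 of 9 and 12 of 12 sections. The means were 10.7 ± 4.18 (SD, n = 9) against 6.03 ± 1.35 and 10.9 ± 2.67 (n = 12) against 6.76 ± 2.83 (n = 13). With the section as a block, *Notch1* was 1.93-fold higher in Wildtype (log2 0.95 ± 0.14 SE, adjusted p = 8.39e-09) and 1.77-fold higher in Knockout-labelled *Cdh5*-gated cells (0.83 ± 0.13, adjusted p = 2.98e-08, edgeR's quasi-likelihood test, Benjamini-Hochberg adjusted). The digit in the deposited section names may stand for the slide, since each genotype had 2 slides. In sections numbered 1 and 2 the log2 difference was 1.13 and 0.76 in the Wildtype, and 1.02 and 0.67 in the Knockout-labelled embryo. Against other cells matched on transcripts per cell it was 1.21 and 1.11. An exact sign-flip test over the 9 Wildtype sections, which can give no p below 0.00390625, left *Notch1* and *Dll4* at an adjusted p of 0.0515, and over 12 Knockout-labelled sections at 0.00786.

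*Notch2*, a receptor present across many tissues, had lower values in *Cdh5*-gated cells of both embryos and passed in the Knockout-labelled ones. Its rate in Wildtype *Cdh5*-gated cells was 4.99, 8.26 and 15.9 (lowest, median, highest) against 9.34, 10.6 and 13.8 in other cells, and in the Knockout-labelled sections 4.11, 6.84 and 10.6 against 7.91, 9.60 and 12.1. The ranges overlapped in both embryos. The Wildtype difference did not pass (log2 -0.15 ± 0.13, adjusted p = 0.670, edgeR's quasi-likelihood test), while in the Knockout-labelled sections *Notch2* fell by 0.48 ± 0.13 on the log2 scale (adjusted p = 0.00367), and was lower in 9 of 12 sections. That call was lost against depth-matched other cells (-0.29, adjusted p = 0.443) and in sections numbered 2 alone (-0.35, adjusted p = 0.338; numbered 1, -0.56, adjusted p = 0.0331).

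*Notch2* was also lower in hemoglobin-gated cells of the Knockout-labelled sections. There it had 2.33, 6.03 and 8.37 counts per 10000 transcripts (lowest, median, highest), and the fit, which scales each sum to the bulk of the panel, gave a fall against other cells (log2 -0.63 ± 0.13, adjusted p = 5.83e-05, edgeR's quasi-likelihood test). Hemoglobin itself fills part of the total in these cells. The plain rate was below that of other cells in 13 of 13 sections, but in only 8 of 13 with the gate genes left out of the totals, where the means were 7.55 ± 2.42 and 9.94 ± 1.41. With the gate genes left out of the fit the difference was -0.61 (adjusted p = 0.000112). It was -0.79 in sections numbered 1 (adjusted p = 0.00116) and -0.44 in those numbered 2 (adjusted p = 0.0782), and it held at matched depth (-0.64, adjusted p = 0.00442). Wildtype hemoglobin-gated cells had a mean of 9.72 ± 3.57 against 11.01 ± 1.58 in other cells, which did not pass (-0.21 ± 0.14, adjusted p = 0.332). Between the embryos *Notch2* in this gate did not pass (log2 -0.36 ± 0.21, adjusted p = 0.576, edgeR's quasi-likelihood test).

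*Notch3*, the receptor of mural cells, passed in no gate against other cells with the settings used throughout. It came nearest in hemoglobin-gated cells of the Wildtype sections, with 5.91 ± 2.04 against 7.75 ± 1.04 in other cells and lower values in 7 of 9 sections (log2 -0.49 ± 0.18, adjusted p = 0.0519, edgeR's quasi-likelihood test). That difference was called in 4 of 11 alternative settings and in 3 of 9 fits that left out 1 section (sections 17, 21 and 22), and the Knockout-labelled value was -0.11 ± 0.14 (adjusted p = 0.587). In the gate of mural genes its mean was 8.32 ± 4.45 in Wildtype and 7.45 ± 2.76 in Knockout-labelled *Tagln*+*Acta2*-gated cells, against 7.75 ± 1.04 and 6.34 ± 1.29 in other cells. The log2 differences of 0.25 ± 0.15 and 0.29 ± 0.13 had adjusted p of 0.479 and 0.160 in edgeR's quasi-likelihood test. Between gates of the Wildtype sections, *Cdh5*-gated cells were below *Tagln*+*Acta2*-gated cells (log2 -0.59 ± 0.20, adjusted p = 0.0412, edgeR's quasi-likelihood test), *Tagln*+*Acta2*-gated cells were above hemoglobin-gated cells (0.73 ± 0.22, adjusted p = 0.00795), and so were *Twist1*-gated cells (0.58 ± 0.20, adjusted p = 0.0253). No such pair passed in the Knockout-labelled sections, and the difference between embryos was not tested for pairs of gates.

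*Dll4*, the Delta-like ligand of arterial and angiogenic endothelium, was also higher in *Cdh5*-gated cells of both embryos. Its rate in Wildtype *Cdh5*-gated cells was 5.30, 8.26 and 13.2 (lowest, median, highest), against 4.05, 5.13 and 6.34 in other cells. In Knockout-labelled sections it was 3.79, 6.72 and 14.6 against 3.24, 3.66 and 6.01. The *Cdh5*-gated cells were higher in 9 of 9 and 12 of 12 sections, although the ranges of the groups overlapped. The fold was 1.93 in the Wildtype (log2 0.95 ± 0.14, adjusted p = 4.24e-08) and 2.06 in the Knockout-labelled embryo (1.04 ± 0.15, adjusted p = 1.82e-09, edgeR's quasi-likelihood test, Benjamini-Hochberg adjusted). By section number it was 1.01 and 0.89 on the log2 scale in the Wildtype, and 0.85 and 1.27 in the Knockout-labelled sections. At matched depth it was 0.70 (adjusted p = 0.0316) and 0.88 (adjusted p = 0.000383). The study also used *Dll4* among the genes that identified its endothelial cluster, while the gate used here did not.

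Hemoglobin-gated cells had *Dll4* values between those of *Cdh5*-gated and other cells. Their mean was 6.15 ± 2.13 in Wildtype and 4.55 ± 1.72 in Knockout-labelled sections, against 5.20 ± 0.77 and 3.93 ± 0.81 in other cells. The log2 differences of 0.46 ± 0.18 and 0.37 ± 0.17 missed the threshold (adjusted p = 0.0616 and 0.0728, edgeR's quasi-likelihood test), and both passed in DESeq2 (adjusted p = 0.0396 and 0.0473). In stricter hemoglobin gates the Wildtype difference turned to -0.75 (adjusted p = 0.739), from 36 cells in 3 sections, and the Knockout-labelled one was 0.43 (adjusted p = 0.246). Endothelial markers were also slightly above other cells in this gate, 7 of 10 in Wildtype (median fold 1.06, highest *Vwf* at 1.29) and 8 of 10 in Knockout-labelled sections (median fold 1.14, *Vwf* 1.33, *Pecam1* 1.31), with 0 of 10 at 1.5-fold, and their part in the *Dll4* values was not tested. *Twist1*-gated cells did lie below them, with log2 differences of -0.59 ± 0.20 (adjusted p = 0.0251) and -0.55 ± 0.18 (adjusted p = 0.0114).

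The Jagged ligand *Jag2* was higher in endothelial cells of the Wildtype sections. Its rate there was 3.09, 5.95 and 7.93 (lowest, median, highest) against 2.99, 3.50 and 4.58 in other cells, with overlapping ranges, and the *Cdh5*-gated cells were higher in 8 of 9 sections (log2 0.65 ± 0.17, adjusted p = 0.00372, edgeR's quasi-likelihood test). In Knockout-labelled sections the values were 1.62, 3.38 and 5.98 against 0.92, 3.17 and 4.90, and the difference of 0.15 ± 0.18 did not pass (adjusted p = 0.705). The Wildtype call was lost at matched depth (0.65, adjusted p = 0.1001) and within either section number (0.62, adjusted p = 0.331, and 0.67, adjusted p = 0.0625), with nearly the same size. The 49 dimmest genes averaged 2.71 and 2.26 in the same *Cdh5*-gated cells.

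*Jag1*, a ligand of endothelium, epithelia and sensory tissue, and *Dll1* passed in no gate against other cells. *Jag1* averaged 11.3 ± 3.07 and 8.76 ± 3.64 in *Cdh5*-gated cells against 10.7 ± 1.58 and 8.32 ± 1.75 in other cells of Wildtype and Knockout-labelled sections. *Dll1* averaged 8.59 ± 1.501 and 7.22 ± 1.57 against 8.58 ± 0.96 and 7.29 ± 1.71. Over the 4 gates and both embryos their log2 differences from other cells ran from -0.28 for *Dll1* to 0.14 for *Jag1*. *Dll1* came nearest to a call in the *Twist1*-gated cells of the Knockout-labelled sections, where it was below the other cells in 12 of 13 sections (log2 -0.28 ± 0.10, adjusted p = 0.0987, edgeR's quasi-likelihood test) and passed in DESeq2 (-0.27, adjusted p = 0.0314).

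*Rbpj*, the DNA-binding partner of every Notch receptor, was lower in hemoglobin-gated cells of both embryos. Its rate there was 5.33, 16.4 and 22.1 (lowest, median, highest) in Wildtype and 8.08, 14.9 and 20.2 in Knockout-labelled sections, against 18.3, 22.1 and 23.7 and 16.2, 19.1 and 26.6 in other cells. The ranges overlapped. The plain rate was below that of other cells in 9 of 9 and 13 of 13 sections, but in 7 of 9 and 7 of 13 with hemoglobin and the other gate genes left out of the totals. The log2 differences were -0.36 ± 0.13 (adjusted p = 0.0365) and -0.29 ± 0.10 (adjusted p = 0.0183, edgeR's quasi-likelihood test). These are small, and the calls were lost at matched depth (-0.41, adjusted p = 0.155, and -0.28, adjusted p = 0.120), in stricter gates (-0.61, adjusted p = 0.532, and -0.21, adjusted p = 0.316) and within either section number (-0.47, adjusted p = 0.140, and -0.33, adjusted p = 0.287, in Wildtype, and -0.31, adjusted p = 0.117, and -0.25, adjusted p = 0.215, in Knockout-labelled sections). The Wildtype call was also lost without any 1 of sections 15, 17, 18, 19 and 20, with log2 differences from -0.48 to -0.28 over all 9 fits without 1 section, and the Knockout-labelled call without section 5 (-0.25, adjusted p = 0.0557). Without the gate genes in the total, the mean rate of *Rbpj* was 17.1 ± 6.78 against 21.96 ± 1.61 in Wildtype and 19.6 ± 5.15 against 20.5 ± 2.66 in Knockout-labelled sections.

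*Maml2*, a Mastermind-like coactivator, passed in no gate against other cells with the settings used throughout. Its *Cdh5*-gated mean was 5.84 ± 2.45 and 6.30 ± 1.85 against 5.69 ± 0.68 and 5.11 ± 0.92 in other cells, and the log2 difference in the Knockout-labelled sections was 0.34 ± 0.15 (adjusted p = 0.113, edgeR's quasi-likelihood test). It was called there with cells of several gates kept (adjusted p = 0.0211) and without section 11 (adjusted p = 0.0433). Between gates, Knockout-labelled *Cdh5*-gated cells exceeded *Twist1*-gated cells in *Maml2* (0.47 ± 0.16, adjusted p = 0.0198) and in *Dll1* (0.40 ± 0.14, adjusted p = 0.0301).

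Counted together, 3 of the 9 genes were higher and 0 lower in Wildtype *Cdh5*-gated cells, where 6.07% of 988 genes were higher and 1.72% lower. In the Knockout-labelled sections 2 were higher and 1 lower, where 8.55% of 982 genes were higher and 5.6% lower. The median log2 difference was 0.09 and 0.12 over the 9 genes, and 0.00 and -0.01 over all genes. In hemoglobin-gated cells 0 were higher and 1 lower in Wildtype, where 6.28% and 10.2% of all genes were higher and lower, and 0 and 2 in Knockout-labelled sections, where 19.7% and 18.2% were. Lower calls in the hemoglobin gate were thus common across the panel. In *Tagln*+*Acta2*-gated and *Twist1*-gated cells 0 of the 9 passed in edgeR's quasi-likelihood test, where 5.87% and 2.63% of genes did in Wildtype and 12.8% and 4.38% in Knockout-labelled sections. At an unadjusted p under 0.05 there were 0 and 0 members in these gates in Wildtype, and 1 and 3 in Knockout-labelled sections, and DESeq2 called 0, 0, 0 and 1.

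**Figure D2:**
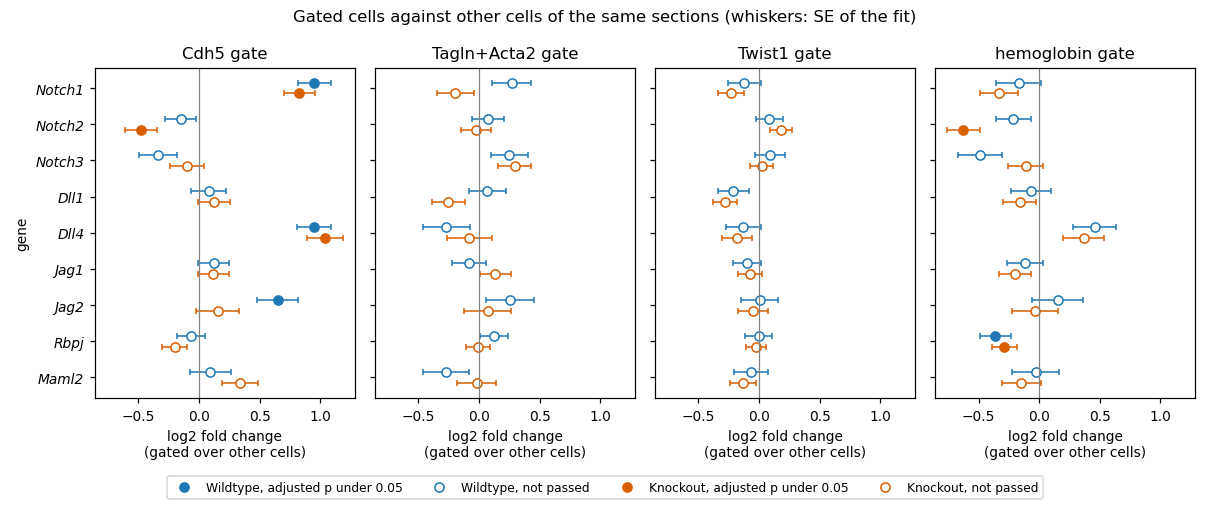
Log2 fold change of each of the 9 genes (rows) in gated over other cells of the same sections (horizontal axes), 1 panel per gate, Wildtype in blue and Knockout-labelled in orange, whiskers showing the SE of the fit and filled points an adjusted p under 0.05. The Cdh5 panel holds 6 filled points, with Notch1 and Dll4 between 0.83 and 1.04 in both embryos, and the Tagln+Acta2 and Twist1 panels hold 0.

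For no member did the distance of a gate from other cells pass a test of difference between the embryos, over 9 members and 4 gates in edgeR's quasi-likelihood test of the interaction. The difference of the *Cdh5* contrast, Knockout-labelled minus Wildtype, was -0.12 ± 0.18 for *Notch1*, 0.10 ± 0.20 for *Dll4*, -0.49 ± 0.24 for *Jag2* (p = 0.0404, adjusted p = 0.851) and -0.33 ± 0.18 for *Notch2* (adjusted p = 0.939, edgeR's quasi-likelihood test of the interaction). *Jag2* and *Notch2* therefore passed in 1 embryo each without a difference between embryos having been shown. For *Notch2* in hemoglobin-gated cells it was -0.40 ± 0.20 (p = 0.0472, adjusted p = 0.607), and for *Notch1* in *Tagln*+*Acta2*-gated cells -0.49 ± 0.22 (p = 0.0318, adjusted p = 0.673). Over the panel, 0% of 991 genes passed in the *Cdh5*, *Tagln*+*Acta2* and *Twist1* gates, with 57, 73 and 36 at an unadjusted p under 0.05, and 0.908% passed in the hemoglobin gate.

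The order of levels followed from contrasts between all pairs of populations, where 14.5% of the Wildtype and 23% of the Knockout-labelled tests between gated populations passed over the panel. For *Notch1*, *Cdh5*-gated cells were above each of the other 4 populations in both embryos, by 0.68 to 1.12 on the log2 scale in Wildtype and by 0.83 to 1.16 in Knockout-labelled sections, and no pair among those 4 passed. For *Dll4*, *Cdh5*-gated cells were above *Tagln*+*Acta2*-gated cells (1.22 and 1.12), *Twist1*-gated cells (1.08 and 1.23) and other cells in both embryos, and above hemoglobin-gated cells in the Knockout-labelled sections (0.67 ± 0.19, adjusted p = 0.00327, edgeR's quasi-likelihood test). The Wildtype value for the last pair was 0.49 ± 0.19 (adjusted p = 0.0766). No pair of other, *Twist1*-gated and *Tagln*+*Acta2*-gated cells passed for *Dll4*, and Wildtype *Tagln*+*Acta2*-gated cells were below hemoglobin-gated cells (-0.73 ± 0.24, adjusted p = 0.0196). For *Notch2* in the Knockout-labelled sections, no pair of *Twist1*-gated, *Tagln*+*Acta2*-gated and other cells passed, and each was above both *Cdh5*-gated and hemoglobin-gated cells. In Wildtype no pair passed for *Notch2*. For *Jag2* the Wildtype *Cdh5*-gated cells also exceeded *Twist1*-gated cells (0.64 ± 0.20, adjusted p = 0.0153), and for *Rbpj* only pairs with hemoglobin-gated cells passed. No pair passed for *Jag1*.

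The rates of *Notch1* and *Dll4* also varied with the number of *Cdh5* transcripts in a cell. Here all cells were pooled over sections by *Cdh5* count alone, with cells of the other gates and of several gates included. The bins are thus not the *Cdh5*-gated and other cells compared above. *Notch1* had 5.88, 5.94 and 5.90 counts per 10000 transcripts in Wildtype cells with 0, 1 and 2 *Cdh5* transcripts. It had 8.16, 9.67 and 13.1 in Wildtype cells with 3, 4 and at least 5. In Knockout-labelled cells the rates were 6.10, 5.94 and 6.06 outside the gate and 8.59, 9.31 and 11.4 inside. *Notch1* was thus flat below the gate threshold and stepped up from 2 to 3 transcripts. *Dll4* already rose in value below the threshold, from 4.89 over 5.11 to 5.78 in Wildtype and from 3.49 over 4.07 to 5.01 in Knockout-labelled cells, and went on to 7.18, 7.64 and 10.7 and to 6.07, 6.87 and 9.16. *Notch2* ran the other way in Knockout-labelled cells, from 9.73, 9.56 and 9.45 outside to 8.19, 7.40 and 5.90 inside, and in Wildtype cells it was lowest in the last bin, at 7.57 after 11.8. These are descriptions with no test, and cells with more *Cdh5* transcripts also held more transcripts in all.

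**Figure D3:**
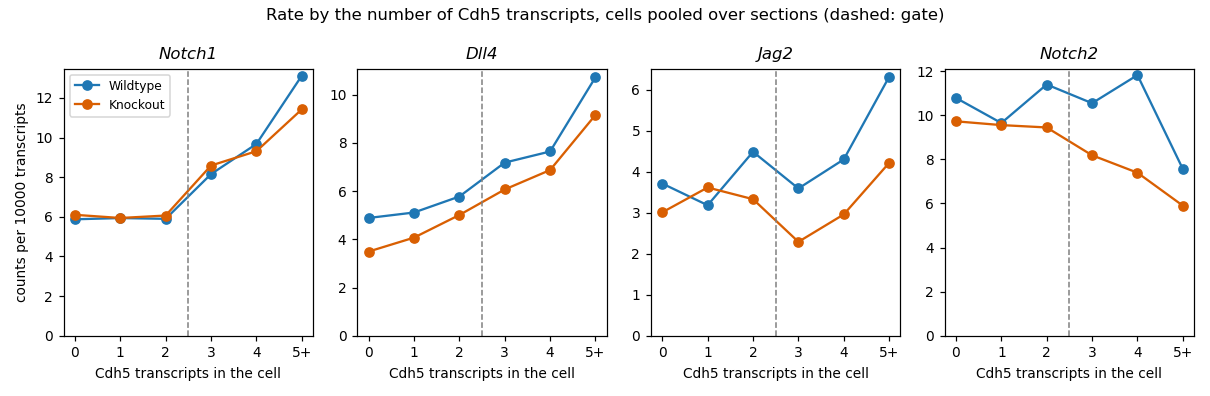
Rate of Notch1, Dll4, Jag2 and Notch2 in counts per 10000 transcripts (vertical axes) against the number of Cdh5 transcripts in the cell (horizontal axes), cells pooled over sections, Wildtype in blue and Knockout-labelled in orange, with the gate threshold as a dashed line. The cells include those of the other gates and of several gates. Notch1 is level up to 2 Cdh5 transcripts and reaches 13.1 and 11.4 at 5 or more, while Notch2 drops to 7.57 and 5.90.

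With every cell thinned to 100 transcripts, so that depth was equal, *Notch1* was detected in 10.4% of Wildtype and 10.3% of Knockout-labelled *Cdh5*-gated cells against 5.52% and 5.998% of other cells. *Dll4* was detected in 9.16% and 7.21% against 4.87% and 3.49%. Before thinning, *Notch1* was in 33.1% and 32.2% of *Cdh5*-gated cells and in 10.4% and 9.80% of other cells. Thinning left out 13 and 18 *Cdh5*-gated and 4854 and 6573 other cells with fewer transcripts. The 49 dimmest genes averaged 2.83 and 2.38 counts per 10000 transcripts in other cells, and how much of these shares is background was not measured.

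*Notch1* and *Dll4* were found together in 65 of 559 Wildtype *Cdh5*-gated cells, or 11.6%, where the product of their shares gives 9.29%, and in 60 of 642 Knockout-labelled ones, or 9.35% against 7.18%. Cells with both had a median of 606 and 545 transcripts and cells with neither 346.5 and 357, so depth moved with the co-detection and its part was not tested.

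Within the *Cdh5* gate, the cells with a *Runx1* transcript, a transcription factor of hemogenic endothelium, numbered 115 in Wildtype and 112 in Knockout-labelled sections. Pooled over sections, *Notch1* was 10.6 in 115 Wildtype cells with *Runx1* and 11.6 in 444 without, and 10.9 in 112 and 10.9 in 530 Knockout-labelled cells. *Dll4* was 9.31 and 9.49 in Wildtype, and 7.47 and 7.67 in Knockout-labelled cells. As a mean over the sections with at least 10 such cells, *Notch1* with *Runx1* was 10.8 ± 5.70 (6 sections) in Wildtype and 14.9 ± 7.48 (4 sections) in Knockout-labelled sections, against 10.8 ± 4.36 and 10.5 ± 2.19 without. The SD is over sections, and the difference within sections was not tested. The gate was also split by arterial *Efnb2* and venous *Ephb4*, as a description of pooled cells with no test. *Dll4* was 8.16 in 83 Wildtype cells with *Efnb2* alone, 8.66 in 172 with *Ephb4* alone and 14.4 in 89 with both, and 12.2 in 84, 7.23 in 195 and 7.53 in 98 Knockout-labelled cells. Cells with neither gene had 7.50 in 215 and 6.11 in 265 cells. The depth differed between these groups, with a median of 582 and 601.5 transcripts in cells with both genes and 338 and 315 in cells with neither, and only 1 Knockout-labelled section held at least 10 cells with *Efnb2* alone, so no order is read from these values. *Efnb2* was itself higher in *Cdh5*-gated than in other cells (log2 0.54 ± 0.14, adjusted p = 0.00214, and 0.52 ± 0.13, adjusted p = 0.00133, edgeR's quasi-likelihood test), and *Ephb4* was in the Knockout-labelled sections (0.52 ± 0.10, adjusted p = 1.39e-05; Wildtype 0.30 ± 0.12, adjusted p = 0.116).

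Among the populations cut from the other cells, *Notch1* had its highest rates in cells with *Sox2*, a transcription factor of neural progenitors. Among other cells, those with at least 2 *Sox2* transcripts numbered 271 in Wildtype and 714 in Knockout-labelled sections. Their *Notch1* rate was 4.88, 8.85 and 16.5 (lowest, median, highest of 8 Wildtype sections with at least 10 such cells), against 4.57, 5.20 and 8.07 in the remaining other cells. In 12 Knockout-labelled sections it was 3.47, 16.2 and 38.9 against 3.13, 5.52 and 11.4. The *Sox2* cells were higher in 7 of 8 and 11 of 12 sections, and the ranges overlapped. Section 12, the highest, rested on 12 *Notch1* transcripts in 15 cells, while section 10 had 185 in 221 cells, a rate of 28.1. *Dll1*, whose product is the ligand of neural progenitors, averaged 9.92 ± 4.23 in Wildtype and 13.4 ± 5.04 in Knockout-labelled *Sox2* cells against 8.40 ± 0.95 and 6.79 ± 1.54 in cells with neither *Sox2* nor epithelial genes. These further populations were described and not tested.

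The share of *Sox2* cells among other cells ran from 0.666% to 2.71% in Wildtype and from 0.496% to 13.1% in Knockout-labelled sections, the highest being section 10. Cells with at least 2 transcripts of the epithelial genes *Epcam* and *Cdh1* had a *Jag1* mean of 12.8 ± 1.55 in Wildtype and 9.51 ± 1.79 in Knockout-labelled sections, against 10.4 ± 1.68 and 8.05 ± 1.88 in cells with neither.

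**Figure D4:**
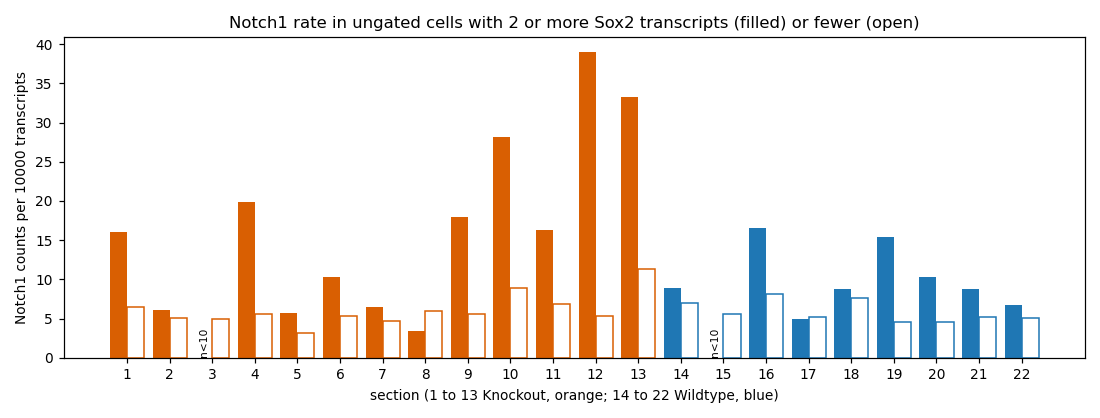
Notch1 counts per 10000 transcripts (vertical axis) in each section (horizontal axis, 1 to 13 Knockout-labelled in orange, 14 to 22 Wildtype in blue), for other cells with at least 2 Sox2 transcripts (filled bars) and with fewer (open bars), sections 3 and 15 having under 10 Sox2 cells and no filled bar. The filled bar is the higher one in 11 of 12 and 7 of 8 sections and reaches 38.9 in section 12.

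The remaining Notch pathway genes of the panel were those of the Gene Ontology term that the study used for its Notch score. Of 28 such genes, all tested against other cells, 4 were higher and 1 lower in Wildtype *Cdh5*-gated cells, and 6 higher and 3 lower in the Knockout-labelled ones. The shares over all genes in these gates were the 6.07% and 1.72%, and the 8.55% and 5.6%, given above. The direct target *Hey1*, a repressor of the hairy family in vessels and heart, rose in both, by 0.66 ± 0.14 (adjusted p = 0.000224) and 0.46 ± 0.14 (adjusted p = 0.00945, edgeR's quasi-likelihood test). *Hey2* rose in the Knockout-labelled sections (0.67 ± 0.20, adjusted p = 0.00743) and had 0.36 ± 0.20 in Wildtype (adjusted p = 0.412). The targets *Hes1* and *Hes5* did not pass, at -0.09 and 0.01 in Wildtype and -0.18 and -0.58 in Knockout-labelled sections. The other genes that passed in both embryos were *Acvrl1*, an endothelial receptor for BMP9 (0.64 and 0.78), *Tgfb1*, a secreted growth factor (0.82 and 1.03), and *Sox9*, a transcription factor of cartilage and neural progenitors (-0.92 and -1.06). The median of the list was 0.06 and 0.08 on the log2 scale, against 0.00 and -0.01 over all genes.

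In hemoglobin-gated cells, 3 of the 28 were higher and 6 lower in Wildtype, and 4 higher and 11 lower in Knockout-labelled sections, with *Hes1* lower in both (-0.65 ± 0.20, adjusted p = 0.0122, and -0.67 ± 0.16, adjusted p = 0.000415, edgeR's quasi-likelihood test). Over all genes 6.28% and 10.2% were higher and lower there in Wildtype, and 19.7% and 18.2% in Knockout-labelled sections. *Tagln*+*Acta2*-gated cells had 2 higher and 0 lower in Wildtype, where 5.26% and 0.607% of all genes were, and 5 higher and 3 lower in Knockout-labelled sections, where 8.86% and 3.97% were. *Twist1*-gated cells had 0 higher and 1 lower, against 1.72% and 0.911%, and 1 higher and 3 lower, against 1.53% and 2.85%. The 26 genes called over the whole panel in this Wildtype gate became 10 to 17 without section 14, 15, 16, 18, 19 or 20, and the 43 in the Knockout-labelled one became 27 without section 9.

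Likeness of pattern was measured as Pearson's r of the log2 rate over 109 sums of section and population, which share libraries and depth, and is given as a description. The sums are set by the gates, so genes raised in the same gate resemble each other, and r is not independent of the gate contrasts. The 3 genes most like *Dll4* were the endothelial genes *Tie1* (r = 0.59), *Icam2* (0.58) and *Pecam1* (0.57). Those most like *Notch1* were the basement membrane collagens *Col4a2* (0.69) and *Col4a1* (0.65) and *Igfbp3* (0.60). *Notch2* was closest to *Twist2* (0.58), *Tgfbr1* (0.56) and *Efna4* (0.55), and *Jag2* to *Gsn* (0.59), *Mmp1a* (0.56) and *Tyms* (0.56). For *Notch3*, *Dll1*, *Jag1*, *Rbpj* and *Maml2* the closest genes reached 0.47 (the shared probe Ppp3ca/Calc), 0.43 (*Sfn*), 0.50 (*Ace*), 0.56 (*Ctla4*) and 0.44 (*Lpar5*).

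Between the embryos, none of the 9 genes passed in any population. The sections labelled Knockout were compared with the Wildtype sections over all cells, where 12.5% of 998 genes passed, and in *Cdh5*-gated (7.08%), *Tagln*+*Acta2*-gated (3.3%), *Twist1*-gated (3.92%), hemoglobin-gated (3.66%) and other cells (15.1%). The shares of the smallest sums rested on single sections. The 24 genes called in *Tagln*+*Acta2*-gated cells became 11 without section 15, 12 without section 12, 13 without section 8 or 18 and 14 without section 20, and the 26 called in hemoglobin-gated cells became 13 without section 20, 15 without section 9 and 17 without section 16. In the *Tagln*+*Acta2* and hemoglobin gates 7 of the 9 genes had counts enough to be tested. At an unadjusted p under 0.05, edgeR's quasi-likelihood test gave 0 members in each of the 6 comparisons, and DESeq2 gave 1 in all cells, 2 in other cells and 0 elsewhere, with 0 after adjustment.

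By adjusted p, the value nearest to a difference was that of *Notch1* in other cells, followed by *Rbpj* there (log2 0.18 ± 0.09, adjusted p = 0.208, edgeR's quasi-likelihood test). The *Notch1* rate in other cells was 4.85, 5.25 and 8.48 (lowest, median, highest) in Wildtype and 3.19, 5.92 and 12.8 in Knockout-labelled sections, with overlapping ranges. Its log2 difference was 0.42 ± 0.21 (adjusted p = 0.194, edgeR's quasi-likelihood test). By section number it was uneven, and this unevenness was not tested. In those numbered 2 it was 0.90 ± 0.22 (adjusted p = 0.0134), and in those numbered 1 -0.11 ± 0.18 (adjusted p = 0.790). The *Sox2* cells had shares of 1.65% to 13.1% in Knockout-labelled against 1.41% to 2.71% in Wildtype sections numbered 2. In those numbered 1 the shares were 0.496% to 6.65% against 0.666% to 2.45%. In the other cells without them, *Notch1* ran from 5.29 to 11.4 in Knockout-labelled against 4.57 to 7.66 in Wildtype sections numbered 2. In those numbered 1 it ran from 3.13 to 6.42 against 5.20 to 8.07. The part of the *Sox2* cells in the difference was not tested. No slide held both embryos, so slide and embryo cannot be told apart.

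In *Cdh5*-gated cells the embryo difference was 0.14 ± 0.18 for *Notch1*, -0.09 ± 0.19 for *Dll4*, -0.26 ± 0.18 for *Notch2* and -0.44 ± 0.23 for *Jag2* (adjusted p = 0.748, 0.870, 0.517 and 0.310, edgeR's quasi-likelihood test). All of these values are relative to the other genes of the panel. Scaled by library size alone, the median gene over all cells shifted from -0.03 to -0.30, and *Notch2*, *Notch3*, *Dll1*, *Dll4* and *Jag1* were then among 719 genes called lower in the Knockout-labelled sections. Of the 28 other pathway genes, 5 were higher and 0 lower over all cells, where 9.82% of all genes were higher and 2.71% lower. Among the 5 were *Hes1* (0.44 ± 0.12, adjusted p = 0.00929) and *Sox9* (0.99 ± 0.20, adjusted p = 0.00122), and *Foxc1* was the 1 that was higher in *Cdh5*-gated cells (0.56 ± 0.16, adjusted p = 0.0126, edgeR's quasi-likelihood test, 24 genes tested), where 6.01% of all genes were higher and 1.06% lower. In other cells 6 were higher and 1 lower, against 10.7% and 4.41% of all genes, and in *Twist1*-gated cells 2 were higher and 0 lower, against 3.82% and 0.101%. edgeR's quasi-likelihood test called 0 of the 21 tested in the *Tagln*+*Acta2* gate and 0 of the 14 tested in the hemoglobin gate.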

How the data were processed

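CosMx counts had been made from E10 mouse embryo sections, and the authors deposited 1 cell-by-gene table of raw transcript counts per section. The submitters' processing notes name Seurat, without a version. Of 37575 cells, 5 with under 10 transcripts or genes were left out. Although 6 of 231 section pairs shared 3410 cell names, 0 shared names had identical profiles. Counts were summed per section and population (at least 10 cells) and tested in edgeR 4.0.16 (TMM, filterByExpr, quasi-likelihood), under R 4.3.3, with section as a block between populations and Benjamini-Hochberg adjustment over all genes tested. DESeq2 1.42.0 and limma 3.58.1 gave alternatives. The fits were also run on simulated counts that held no section, slide or embryo effect, so these cannot speak to the block or to the comparison of embryos. Rates are counts per 10000 transcripts. The named genes were the 9 members, *Nr4a1*, *Nr4a2*, the study's other Notch pathway genes, *Efnb2*, *Ephb4* and each member's 3 most similar genes. Pearson's r used log2 rates with a pseudocount of 0.5. Members and lists were chosen with earlier results of these data known. Negative probes and images were not used here.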

Additional observations from a re-analysis of the deposited data

Results flagged for a closer look

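A highest section stood apart from the rest of its group in 4 of 54 groups of 4 to 10 sections, by Dixon's ratio of the gap to the range, which chance flags in about 1 group in 20. All 54 were Wildtype groups, since those of the Knockout-labelled embryo held 12 or 13 sections and were not screened. There, *Jag2* in hemoglobin-gated cells of section 7 had 7.17 counts per 10000 transcripts, from 12 transcripts, where the next section had 3.09. Over all cells, *Jag2* was lowest in Knockout-labelled section 13, at 0.887 from 15 transcripts in 836 cells, where the next section had 2.57. Of the 4, 3 came from section 17 of the Wildtype embryo, in its 26 hemoglobin-gated cells. *Jag2* had 10.7 counts per 10000 transcripts there, from 4 transcripts, where the next section had 5.27. *Notch2* had 18.6, from 7 transcripts, where the next had 10.2. *Notch3* had 10.7, from 4 transcripts, where the next had 7.02. The last was *Rbpj* in 36 *Twist1*-gated cells of Wildtype section 16, at 31.2 from 49 transcripts, where the next section had 23.01.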

How the results depend on the processing

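No paired analysis was possible between genotypes because the Wildtype and Knockout-labelled sections came from different embryos and no slide held both. Within an embryo the section was the block between populations, and with no replicate block 0 members in place of 1 were lower in Wildtype and 1 in place of 2 in Knockout-labelled hemoglobin-gated cells, *Rbpj* being lost (log2 -0.34, adjusted p = 0.143, and -0.30, adjusted p = 0.0702). *Notch1* and *Dll4* were called higher in *Cdh5*-gated cells of both embryos without any 1 section and in every other alternative but the exact sign-flip test of the Wildtype, which called 0 members in place of 3. For *Notch2* in Knockout-labelled *Cdh5*-gated cells the count lower was 2 (with *Rbpj*) without a filter and with cells of several gates kept, and 0 in sections numbered 2, at matched depth and by sign-flip. In Knockout-labelled *Tagln*+*Acta2*-gated cells 1 (*Dll1*) was lower by library size alone and 2 (*Dll4*, *Jag1*) higher with several gates kept, where *Dll4* reversed to 0.36 from -0.08. In *Twist1*-gated ones *Dll1* made 1 lower by DESeq2, library size, matched depth and sign-flip. In hemoglobin-gated cells of either embryo 1 (*Dll4*) was higher by DESeq2 and with several gates kept. The count lower there was 5 by library size and 1 in stricter gates, either section number and matched depth in Knockout-labelled cells. In sections numbered 2 that 1 was neither *Notch2* nor *Rbpj*. Over the 11 alternatives for these cells, *Notch1* was called in 3, *Jag1* in 2 and *Dll1* in 1. In Wildtype the count lower was 2 by library size, no filter, several gates kept and gate genes left out (*Notch3* beside *Rbpj*), and 0 in stricter gates, either section number and matched depth. Without 1 section the hemoglobin counts ran from 0 to 1 higher and from 1 to 3 lower in Knockout-labelled, and from 0 to 1 and from 0 to 2 in Wildtype cells. *Rbpj* was called without 1 section in 4 of 9 Wildtype and 12 of 13 Knockout-labelled fits, and *Notch1* was called lower in 3 of the 13 Knockout-labelled fits (those without sections 2, 4 or 9), with log2 -0.42 to -0.15 over all 13. Between embryos, library size alone and the exact permutation of unscaled rates called 5 members lower in all cells, 3 in other cells (*Notch3*, *Dll4*, *Jag1*), 1 in *Twist1*-gated cells (*Dll4*), and 1 and 2 in hemoglobin-gated cells, and *Notch2* in all cells reversed from 0.10 to -0.17 under both. Sections numbered 2 alone called 1 higher (*Notch1*) in all and in other cells. Calls over all genes moved as well, from 125 to 777 and 773 in all cells and from 151 to 745 and 754 in other cells under these 2 settings, with 7.46% in place of 78.4% of calls higher in all cells by library size. In *Cdh5*-gated cells against other cells, calls higher made up 57.5% in place of 77.9% in Wildtype and 47.5% in place of 60.4% in Knockout-labelled sections. Between embryos, sections numbered 1 alone called 55 in all and 74 in other cells, and 18 in place of 60 in *Cdh5*-gated, 2 in place of 24 in *Tagln*+*Acta2*-gated, 1 in place of 39 in *Twist1*-gated and 8 in place of 26 in hemoglobin-gated cells. Stricter gates called 13, 0, 20 and 0 in these 4, library size 164 and 168 in the last 2, the permutation 164 and 97, DESeq2 40 in the second and 60 in the third, and several gates kept 40 and sections numbered 2 alone 7 in the second. Against other cells, sections numbered 1 and 2 called 51 and 33 in place of 77 in Wildtype and 87 and 86 in place of 139 in Knockout-labelled *Cdh5*-gated cells, 83 and 83 in place of 163 and 231 and 199 in place of 372 in hemoglobin-gated cells, and 3 and 3 in place of 26 and 7 and 20 in place of 43 in *Twist1*-gated cells. In *Tagln*+*Acta2*-gated cells they called 61 and 75 in place of 126 in Knockout-labelled sections, and number 1 called 31 in place of 58 in Wildtype, where library size called 121. At matched depth the counts were 55 and 88 in *Twist1*-gated and 89 and 204 in hemoglobin-gated cells of Wildtype and Knockout-labelled sections, and 53 in Knockout-labelled *Tagln*+*Acta2*-gated cells. Stricter hemoglobin gates called 24 and 187, the fit with no replicate block 6 and 14 in *Twist1*-gated and 83 in Knockout-labelled *Tagln*+*Acta2*-gated cells, and the Wildtype sign-flip test 0 in 3 gates and 86 in the hemoglobin gate. Leaving out each section was chosen after seeing the data. The cause of these changes was not tested. *Jag2* lies near the dimmest genes, and stricter hemoglobin gates left 36 Wildtype cells in 3 sections, where *Dll4* went from 0.46 to -0.75 with a call under neither.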
